A study of Mus musculus with 16 samples.

Results

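The clock output transcription factors are the regulators through which the circadian clock acts on other genes and on itself. 9 of them were examined, *Dbp*, *Tef*, *Hlf*, *Nfil3*, *Ciart*, *Bhlhe40*, *Bhlhe41*, *Rora* and *Rorb*, listed by symbol and matched on the gene names of the expression table. All 9 were found among its 55487 genes, and all 9 were among the 18859 genes that passed a filter on low values and were tested. The rule that lists them uses no measured value, although the list was drawn up with earlier results of these data known.

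In the mammalian clock, CLOCK and BMAL1, the latter encoded by *Arntl*, bind E-boxes and drive *Per*, *Cry* and *Nr1d* genes, whose products then restrain them. The same E-boxes drive *Dbp*, and DBP, TEF and HLF form the PAR bZIP family, activators that bind D-boxes in many genes of metabolism and detoxification. NFIL3, also called E4BP4, competes with them as a repressor at the D-box. CIART, also called CHRONO, binds BMAL1 and represses E-box transcription, and the basic helix-loop-helix repressors BHLHE40 and BHLHE41, or DEC1 and DEC2, act on E-boxes directly. RORA and RORB are orphan nuclear receptors that activate genes such as *Arntl* through RORE sequences, where NR1D1 and NR1D2 repress, and *Rorb* is also known in cortex as a gene of layer 4 neurons.

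The RNA came from the cortex of 16 wild-type male C57BL/6 mice, 2 months old, injected intraperitoneally with 2 mg/kg LPS, a bacterial endotoxin, or with PBS. Each mouse received 2 injections on consecutive days at zeitgeber time (ZT) 1, early in the light phase, or at ZT13, early in the dark phase. The groups were ZT1 PBS and ZT13 PBS with 3 mice each, and ZT1 LPS and ZT13 LPS with 5 mice each. Tissue was taken 24 hours after the last injection, so the clock time of injection and that of collection cannot be told apart. Bulk cortex mixes cell types, in which fewer cells of a type and less RNA per cell cannot be told apart either. Values are CPM, the reads on a gene for every 1000000 reads on all genes of the sample, and the spacing of low values corresponded to 20251840 to 29112758 reads per sample.

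The summed level of 6 cortical neuron markers was 4101 to 4782 CPM in the 16 samples, with 3 of the 6 called lower after LPS at ZT13. Other cell markers moved with LPS, and the part of these shifts in the results below was not tested. The sum of 5 microglial markers was 126 to 143 CPM in PBS and 141 to 244 CPM in LPS samples, with 4 higher and 1 lower of 5 called in each LPS comparison. That of 5 neutrophil markers was 0.228 to 0.789 CPM in PBS, where *Ly6g* was listed at 0 in all samples, and 7.52 to 67.6 CPM in LPS samples, with 2 of 3 tested called higher at ZT1 and 3 of 3 at ZT13. The sum of 5 astrocyte markers ran from 4437 to 4821 CPM in PBS and from 4916 to 5692 CPM in LPS samples. Within the ZT1 LPS group replicate 2 stood apart, with 141 CPM of microglial and 144 CPM of endothelial markers against at least 201 and 167 CPM in the other 4. The sum of 4 choroid plexus markers varied widely within groups, from 12.4 to 948 CPM over the 16 samples, and none of the 4 markers was called in any comparison. The sum of 5 oligodendrocyte markers was 2241 to 2633 CPM in ZT1 PBS and 2118 to 2554 CPM in ZT1 LPS, and 2578 to 2796 CPM in ZT13 PBS and 2249 to 2389 CPM in ZT13 LPS samples, where 3 of 5 were called lower and 1 higher. The remaining sums ran from 79.6 to 135 CPM for 4 of striatum, 18.3 to 26.5 CPM for 2 of hippocampus and 5.35 to 25.3 CPM for 3 of erythrocytes. That of 4 thalamus markers was 47.7 to 57.1 CPM in PBS and 58.1 to 65.3 CPM in LPS samples, and that of 4 lymphocyte markers was at most 1.17 CPM.

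Read against the length of their exons, the 9 genes fell into an upper and a lower tier. Averaged over all 16 samples, *Tef* was at 40.2 CPM per kb of merged exons, *Hlf* at 32.1, *Bhlhe40* at 27.5 and *Dbp* at 22.4 CPM per kb. *Ciart* followed at 8.403, *Rorb* at 8.26, *Rora* at 8.19, *Bhlhe41* at 6.95 and *Nfil3* at 4.14 CPM per kb. *Tef* was first in every group and overlapped with no other gene. *Dbp* took the fourth place in ZT1 PBS, ZT1 LPS and ZT13 LPS, and the second in ZT13 PBS, at 33.4 ± 3.23 CPM per kb (SD, n = 3), where its samples overlapped with those of *Hlf*. *Ciart* was last in ZT1 PBS, at 4.82 ± 0.426 CPM per kb (SD, n = 3), where its range overlapped with that of *Nfil3*, and in the fifth place in ZT13 PBS, at 13.6 ± 2.02 CPM per kb (SD, n = 3), clear of *Rorb* below it. *Rora* and *Rorb* overlapped with each other in all 4 groups.

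**Figure D1:**
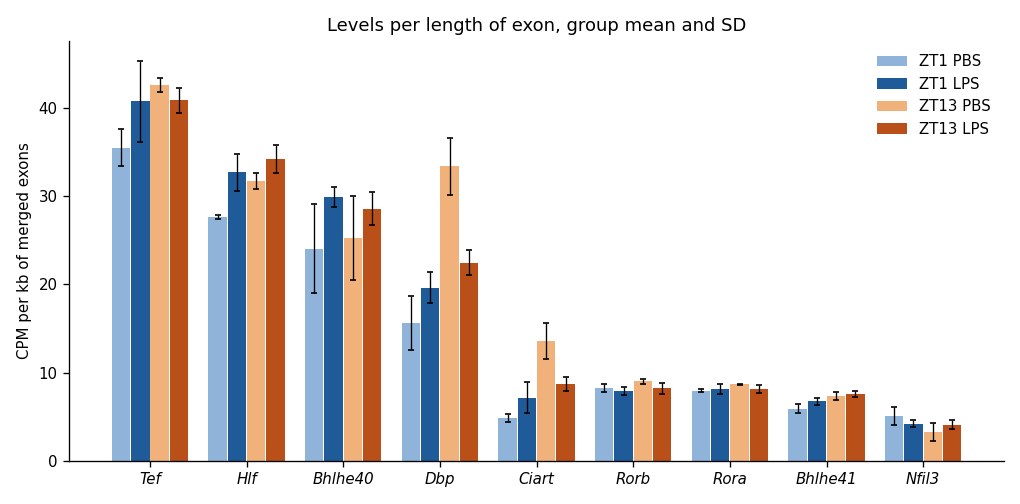
Group mean level of each gene in CPM per kb of merged exons (y axis), with bars for the 4 groups and error bars of 1 SD between mice (n = 3 for PBS, 5 for LPS). *Dbp* and *Ciart* reach their highest bars in ZT13 PBS, at 33.4 and 13.6 CPM per kb.

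Each pairwise comparison was fitted with limma on log2(CPM + 0.5), and a gene was called at a Benjamini-Hochberg adjusted p under 0.05 over all genes tested. Fold changes on this scale slightly understate those of low genes. After PBS, 4 of the 9 genes were called higher at ZT13 than at ZT1, *Dbp*, *Tef*, *Hlf* and *Ciart*, where 0.52% of all genes tested were called. After LPS, 0 of 9 were called between the times by limma, where 0.0212% of all genes were. That share depended on single mice. Without ZT1 LPS replicate 1, 317 genes were called higher and 28 lower, and without ZT1 LPS replicate 3, 0 were called. In the fit of all LPS mice, an unadjusted limma p under 0.05 was seen for 3 of 9, and for 10.6% of all genes tested. LPS against PBS gave 2 of 9 called at ZT1, *Hlf* and *Bhlhe40*, both higher, where 16.2% of all genes were called. At ZT13 it gave 2 of 9, *Dbp* and *Ciart*, both lower, where 28.6% of all genes were called, so both LPS counts were near the background. The interaction of time of day (TOD) and treatment, the LPS response at ZT13 minus that at ZT1, was called for 2 of 9, again *Dbp* and *Ciart*, where 0.159% of all genes were called.

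Samples of a group were also set against each other one gene at a time. The ZT13 PBS and ZT1 PBS samples did not overlap for 7 of the 9 genes, where 18.7% of all genes tested did not overlap. LPS and PBS samples did not overlap for 2 genes at ZT1 and 3 at ZT13, against backgrounds of 24.3% and 31.2%. The ZT13 LPS and ZT1 LPS samples overlapped for all 9 genes, where 1.96% of all genes did not overlap. In two-sided exact permutation tests of the mean log2 value, 0 of the 36 tests passed after Benjamini-Hochberg adjustment, with a lowest adjusted p of 0.184. The smallest p that these tests allow is 0.10 for 3 mice against 3, 0.036 for 5 against 3 and 0.0079 for 5 against 5.

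**Figure D2:**
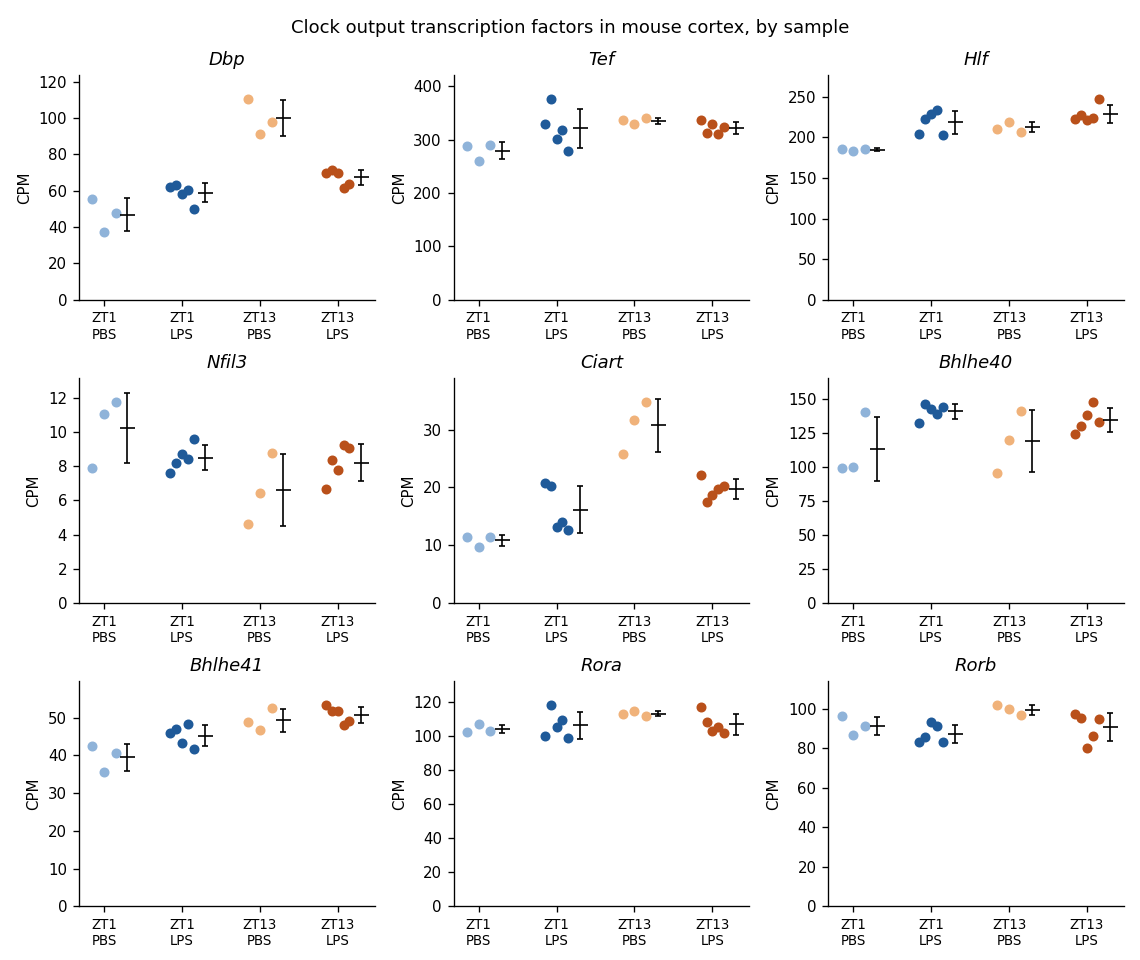
Level of each of the 9 genes in every sample, in CPM (y axis from 0), with 1 point per mouse and, beside it, the group mean with an error bar of 1 SD. The 3 ZT13 PBS points of *Dbp* (91.5 to 111 CPM) and *Ciart* (25.8 to 34.8 CPM) lie above all other samples of those genes.

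*Dbp* (ENSMUSG00000059824), a strongly rhythmic gene in many tissues, lies on chromosome 7 of GRCm38 from 45705088 to 45710203 on the plus strand. It was at 55.5, 37.3 and 47.6 CPM in the ZT1 PBS mice and at 111, 91.5 and 98.0 CPM in the ZT13 PBS mice. The highest morning sample was 36.0 CPM below the lowest evening sample. *Dbp* rose 2.15-fold, a log2 fold change of 1.10 (standard error (SE) 0.12, limma adjusted p = 0.0085). Without ZT1 PBS replicate 3 the adjusted p was 0.052, and when limma's prior variance did not follow the expression level it was 0.16, and with all genes above 0 tested it was 0.22.

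In LPS-treated mice the same 2 times lay close together. *Dbp* was at 62.2, 63.0, 58.3, 60.5 and 50.1 CPM at ZT1 and at 69.7, 71.6, 70.0, 61.5 and 64.0 CPM at ZT13, where 4 of 5 samples exceeded every ZT1 sample. The log2 difference of 0.20 (SE 0.06) had a limma adjusted p of 0.27 and a two-sided exact permutation p of 0.024 before adjustment. Against PBS, the ZT13 LPS samples were all lower, by at least 19.9 CPM, with a log2 fold change of -0.57 (SE 0.06, limma adjusted p = 1.5e-05). At ZT1, 4 of 5 LPS samples were above the highest PBS sample, and the log2 difference of 0.34 (SE 0.11) did not pass (limma adjusted p = 0.060). It did without ZT1 PBS replicate 1 (adjusted p = 0.023) or ZT1 LPS replicate 5 (adjusted p = 0.024), and in 3 of 9 other fits. Those 3 used sample quality weights (adjusted p = 0.031), a replicate block (0.039) or a single fit of 16 samples (0.019). The interaction was -0.91 on the log2 scale (SE 0.14, limma adjusted p = 0.011), so the time difference after PBS exceeded that after LPS by this amount. It did not pass without that trend in the prior variance (adjusted p = 0.064), nor when each gene's own variance was used with no moderation (adjusted p = 0.12). Of the exon bases of *Dbp*, 539 are shared with *Sphk2* on the opposite strand, which was at 34.5 to 44.6 CPM, and no source used here states whether the counting used strand.

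*Tef* (ENSMUSG00000022389, chromosome 15 from 81802421 to 81826863, plus strand) and *Hlf* (ENSMUSG00000003949, chromosome 11 from 90336536 to 90390895, minus strand) encode the other PAR bZIP factors. *Tef* was at 288, 261 and 289.8 CPM in ZT1 PBS and at 337, 329 and 341 CPM in ZT13 PBS samples. Those ranges did not overlap, and the log2 fold change was 0.26 (SE 0.04, limma adjusted p = 0.039). *Hlf* was at 185, 183 and 186 CPM in ZT1 PBS and at 211, 219 and 207 CPM in ZT13 PBS samples, again apart, with a log2 fold change of 0.20 (SE 0.03, limma adjusted p = 0.039). Both changes were small beside that of *Dbp*, and both calls were mostly lost when any 1 mouse was removed. Over all refits the log2 fold changes stayed between 0.21 and 0.29 for *Tef* and between 0.18 and 0.22 for *Hlf*. For *Tef* the adjusted p ran from 0.076 to 0.15 when 1 PBS mouse at a time was removed, 6 fits in all, and *Hlf* passed in 1 of those 6, the one without ZT13 PBS replicate 3 (adjusted p = 0.041). Neither passed without the trend in the prior variance (adjusted p = 0.25 for both), with all genes above 0 tested (0.27 and 0.15) or in a single fit of 16 samples (0.19 and 0.15).

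After LPS the ranges of both genes overlapped between the times. *Tef* spread from 279 to 376 CPM at ZT1, with the highest value in replicate 2, and from 310.1 to 336 CPM at ZT13, with a log2 difference of 0.01 (SE 0.06). *Hlf* was at 205, 223, 229, 234 and 203 CPM in ZT1 LPS samples, all 5 above every ZT1 PBS sample. It rose with LPS at ZT1 by a log2 fold change of 0.24 (SE 0.05, limma adjusted p = 0.0084), and still passed whichever of the 8 mice was removed, though not with all genes above 0 tested (adjusted p = 0.061). The *Tef* difference at ZT1, 0.19 (SE 0.08, limma adjusted p = 0.13), passed without ZT1 LPS replicate 5 (adjusted p = 0.033). At ZT13 *Hlf* was at 223, 228, 222, 224 and 248 CPM after LPS, and the lowest was 2.61 CPM above the highest PBS sample. That difference, 0.11 on the log2 scale (SE 0.04), did not pass (limma adjusted p = 0.065). The interactions of *Tef*, -0.25 (SE 0.09, limma adjusted p = 0.38), and of *Hlf*, -0.13 (SE 0.07, limma adjusted p = 0.57), did not pass.

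The sequence before each start was read from RefSeq's promoter table for GRCm38.p6, which held 10 windows for 8 of the 9 genes and none for *Bhlhe40*. The 250 bases before each start were searched on both strands for the E-box CACGTG, the E′-box CACGTT, the D-boxes TTATGTAA and TTACGTAA, the RORE cores TAGGTCA and TGGGTCA, and the cAMP response element (CRE) TGACGTCA. Of all 32851 windows in the table, 6.02% held an E-box, 3.85% an E′-box, 0.931% a D-box, 5.38% a RORE core and 1.55% a CRE. A match describes these letters and is not evidence of a bound site. *Tef* had an E-box in the window of each of its 2 listed starts, at position -127 from the first start and -138 from the second, counted to the first base of the match. Both of these E-boxes lie within the annotated span of *Tef* and not before it. *Hlf* had a CRE at -9. These stretches of *Tef* and *Hlf* are printed 5′ to 3′ on the gene's strand to show both matches in place, with the E-box or CRE in capitals, at chr15:81802536-81802561 (+), chr15:81811164-81811413 (+) and chr11:90390918-90391167 (-).
Tef, first start, E-box: gctgtggctcCACGTGctgcagctgg
Tef, second start: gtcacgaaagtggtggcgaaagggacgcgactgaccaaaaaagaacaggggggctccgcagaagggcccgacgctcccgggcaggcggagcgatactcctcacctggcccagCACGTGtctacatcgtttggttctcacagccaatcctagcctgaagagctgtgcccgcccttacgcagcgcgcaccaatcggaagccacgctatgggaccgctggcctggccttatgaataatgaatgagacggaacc
Hlf: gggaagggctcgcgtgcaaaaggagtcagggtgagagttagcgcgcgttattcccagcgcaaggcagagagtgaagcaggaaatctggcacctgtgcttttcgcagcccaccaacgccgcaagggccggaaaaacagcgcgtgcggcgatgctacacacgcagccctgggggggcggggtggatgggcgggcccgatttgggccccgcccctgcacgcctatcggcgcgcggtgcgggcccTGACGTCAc
None of the searched motifs was found in the 250 bases before the starts of *Dbp* and *Rora*, and 1 of the 2 *Rorb* windows held an E′-box on the opposite strand, at -234. That *Rorb* window also lies within the annotated span of its gene.

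*Nfil3* (ENSMUSG00000056749, chromosome 13 from 52967209 to 52981073, minus strand), the D-box repressor, was the one gene of the 9 with a lower mean in the evening after PBS. Its samples were at 7.89, 11.1 and 11.7 CPM in ZT1 PBS and at 4.59, 6.43 and 8.78 CPM in ZT13 PBS. The ranges overlapped, and the log2 difference of -0.62 (SE 0.21) did not pass (limma adjusted p = 0.26). After LPS the values were 7.60, 8.19, 8.69, 8.44 and 9.61 CPM at ZT1 and 6.64, 8.38, 7.76, 9.25 and 9.05 CPM at ZT13, spanning much the same range. LPS against PBS gave log2 differences of -0.24 (SE 0.13, limma adjusted p = 0.23) at ZT1 and 0.33 (SE 0.16, limma adjusted p = 0.16) at ZT13. Leaving out 1 PBS mouse brought each of these past the threshold, replicate 1 at ZT1 (adjusted p = 0.041) and replicate 3 at ZT13 (adjusted p = 0.019). The interaction was 0.57 (SE 0.23, limma adjusted p = 0.42).

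The 250 bases before the *Nfil3* start held a RORE core on the opposite strand, its first base at -12. This match lies within the annotated span of *Nfil3* and not before it. The site, chr13:52981040-52981061 (-), is shown with the reverse complement of TAGGTCA in capitals, because the receptors of that element include RORA and RORB.
Nfil3, RORE core: cgctcggaacTGACCTActaac

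Because the PAR bZIP activators and NFIL3 bind the same element, their transcripts were also set against each other per length, a measure chosen after the values were seen and given with no test. The summed level of *Dbp*, *Tef* and *Hlf* was 73.0 to 82.9 CPM per kb in ZT1 PBS and 105 to 111 CPM per kb in ZT13 PBS samples. After LPS it was 82.6 to 102 CPM per kb at ZT1 and 93.4 to 99.5 CPM per kb at ZT13. *Dbp* made up 17.1% to 22.3% of that sum in ZT1 PBS and 29.1% to 33.2% in ZT13 PBS samples, and 20.3% to 24.5% in the LPS samples of both times. The sum was 13.4 to 21.3 times the *Nfil3* level in ZT1 PBS and 24.7 to 49.1 times in ZT13 PBS samples. In the LPS groups this ratio was 17.4 to 25.3 at ZT1 and 20.5 to 30.3 at ZT13, and the 2 ranges overlapped.

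*Ciart* (ENSMUSG00000038550, chromosome 3 from 95878503 to 95882251, minus strand), the BMAL1-binding repressor, had the largest time difference of the 9 after PBS on the log2 scale. It was at 11.4, 9.78 and 11.5 CPM in ZT1 PBS and at 25.8, 31.6 and 34.8 CPM in ZT13 PBS samples. All 3 evening samples were above all 3 morning samples, by at least 14.3 CPM. *Ciart* rose 2.73-fold, a log2 fold change of 1.45 (SE 0.11, limma adjusted p = 8.3e-04), and still passed whichever of the 6 mice was removed. It did not pass without the trend in the prior variance (adjusted p = 0.071) or with all genes above 0 tested (adjusted p = 0.075).

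After LPS, *Ciart* was at 20.8, 20.2, 13.2, 14.0 and 12.6 CPM at ZT1 and at 22.2, 17.5, 18.7, 19.7 and 20.2 CPM at ZT13. The ZT1 LPS samples lay apart, replicates 1 and 2 within the ZT13 LPS range and the other 3 below it. The log2 difference between the times was 0.30 (SE 0.13, limma adjusted p = 0.43). At ZT13 all 5 LPS samples were below all 3 PBS samples, a log2 fold change of -0.62 (SE 0.09, limma adjusted p = 1.7e-04). At ZT1 all 5 were above the PBS samples, with a log2 difference of 0.52 (SE 0.16) that did not pass (limma adjusted p = 0.051). It passed without ZT1 LPS replicate 3 (adjusted p = 0.046) or replicate 5 (adjusted p = 0.023), and in 4 of 9 other fits. Those 4 tested only genes of at least 5 CPM (adjusted p = 0.045), or used sample quality weights (0.041), a replicate block (0.021) or a single fit of 16 samples (0.015). The interaction, -1.14 (SE 0.21), passed (limma adjusted p = 0.030). Removing 1 mouse at a time left it past the threshold 8 times out of 16, and it did not pass without ZT1 PBS replicate 1, 2 or 3, ZT13 PBS replicate 2 or 3, or ZT13 LPS replicate 2, 3 or 4 (adjusted p from 0.056 to 0.11). With each gene's own variance and no moderation the adjusted p was 0.17.

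The 250 bases before the *Ciart* start held 3 E-boxes, at -116, -58 and -44, and 0.0609% of all windows in the table held 3 or more. The 227 bases that end at the first annotated exon, chr3:95882252-95882478 (-), are shown with the E-boxes in capitals, because this is the one gene of the 8 searched with more than 1 match in a window.
Ciart: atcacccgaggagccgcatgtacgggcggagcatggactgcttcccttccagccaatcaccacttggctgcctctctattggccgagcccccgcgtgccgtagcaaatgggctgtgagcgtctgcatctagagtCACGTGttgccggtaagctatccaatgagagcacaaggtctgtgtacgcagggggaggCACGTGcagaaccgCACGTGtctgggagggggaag

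*Bhlhe40* (ENSMUSG00000030103, chromosome 6 from 108660629 to 108666925, plus strand), an E-box repressor that also responds to neuronal activity and hypoxia, varied as much between PBS mice of a time as between the times. It was at 99.1, 100.04 and 141 CPM in ZT1 PBS and at 95.8, 119.8 and 141 CPM in ZT13 PBS samples, and the log2 difference was 0.07 (SE 0.15, limma adjusted p = 0.88). After LPS it was at 133, 146, 142, 139 and 144 CPM at ZT1 and at 124, 130.2, 138, 148 and 133 CPM at ZT13. *Bhlhe40* rose with LPS at ZT1 by a log2 fold change of 0.33 (SE 0.10, limma adjusted p = 0.038), although 1 PBS sample lay within the LPS range. Of 8 fits with 1 mouse removed, 2 kept that call, those without ZT1 PBS replicate 3 (adjusted p = 2.9e-04) or ZT1 LPS replicate 1 (adjusted p = 0.047), and the adjusted p was 0.0505 to 0.18 in the other 6. With median-of-ratios scaling it was 0.076, without the trend in the prior variance 0.10, and with all genes above 0 tested 0.20. At ZT13 the log2 difference of 0.19 (SE 0.09) did not pass (limma adjusted p = 0.14) with all mice and passed without ZT13 PBS replicate 3 (adjusted p = 0.011).

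*Bhlhe41* (ENSMUSG00000030256, chromosome 6 from 145858243 to 145865558, minus strand), its closest relative, was steadier between mice. The PBS samples were at 42.5, 35.5 and 40.5 CPM at ZT1 and at 48.8, 46.7 and 52.7 CPM at ZT13, and these ranges did not overlap. The log2 difference of 0.32 (SE 0.07) did not pass (limma adjusted p = 0.099). *Bhlhe41* was at 45.8, 46.9, 43.4, 48.4 and 41.8 CPM in ZT1 LPS and at 53.3, 51.7, 51.9, 48.1 and 49.2 CPM in ZT13 LPS samples, where 4 of 5 evening samples were above every morning sample. Its LPS time difference, 0.17 on the log2 scale (SE 0.05), was 51.8% of the PBS difference and did not pass (limma adjusted p = 0.21). LPS against PBS gave 0.20 (SE 0.07, limma adjusted p = 0.076) at ZT1 and 0.04 (SE 0.05, limma adjusted p = 0.60) at ZT13, the former passing without ZT1 LPS replicate 5 (adjusted p = 0.040). Its exons share 1280 bases with *Gm43909* on the opposite strand, which was at 2.59 to 6.54 CPM.

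An E-box lay at -153 from the *Bhlhe41* start. The 112 bases that end at the first annotated exon, chr6:145865559-145865670 (-), carry it in capitals and are shown as the counterpart of the *Tef* and *Ciart* sites.
Bhlhe41: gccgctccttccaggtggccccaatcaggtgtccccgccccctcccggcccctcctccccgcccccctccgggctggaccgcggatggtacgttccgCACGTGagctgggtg

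**Figure D3:**
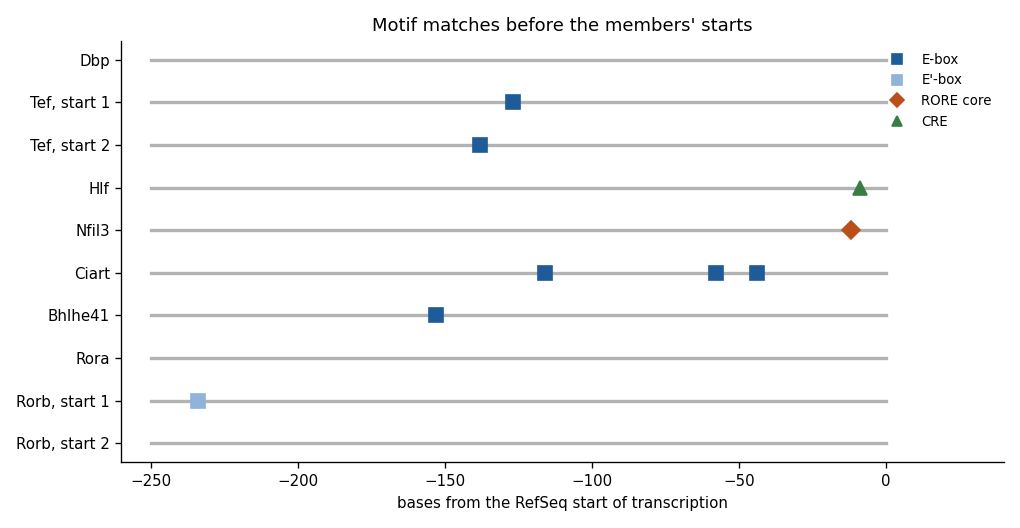
Positions of the motif matches in the 250 bases before each RefSeq start (x axis, bases from the start), 1 line per window, with the symbol at the first base of the match. *Ciart* has 3 E-boxes, at -116, -58 and -44, and the windows of *Dbp* and *Rora* have no match.

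*Rora* (ENSMUSG00000032238, chromosome 9 from 68653786 to 69388246, plus strand) and *Rorb* (ENSMUSG00000036192, chromosome 19 from 18930605 to 19111196, minus strand), the RORE activators, had the narrowest ranges of the 9, a highest over lowest sample of 1.19 and 1.27 against 2.96 for *Dbp* and 3.56 for *Ciart*. *Rora* was at 102, 107 and 103 CPM in ZT1 PBS and at 113, 114 and 112 CPM in ZT13 PBS samples. *Rorb* was at 96.2, 86.7 and 91.3 CPM in ZT1 PBS and at 102, 99.9 and 96.7 CPM in ZT13 PBS samples. Neither gene's ranges overlapped, the *Rorb* groups being 0.514 CPM apart, and neither log2 difference passed, at 0.12 for *Rora* (SE 0.03, limma adjusted p = 0.18) and 0.12 for *Rorb* (SE 0.04, limma adjusted p = 0.28). After LPS, *Rora* ran from 98.7 to 118 CPM at ZT1 and from 101 to 117 CPM at ZT13, and *Rorb* from 83.4 to 93.3 and from 80.3 to 97.3 CPM. The summed level of the layer 4 markers *Scnn1a* and *Rspo1* was 12.1 to 15.9 CPM in the 16 samples, with 1 of the 2 called lower after LPS at ZT1, and 1 called higher and 1 lower at ZT13. Its part in the *Rorb* values was not tested.

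LPS against PBS did not pass for *Rora* at ZT1, 0.03 (SE 0.06, limma adjusted p = 0.80), or at ZT13, -0.08 (SE 0.04, limma adjusted p = 0.20), where it passed without ZT13 LPS replicate 1 (adjusted p = 0.032). For *Rorb* the log2 differences were -0.06 (SE 0.05, limma adjusted p = 0.47) and -0.13 (SE 0.06, limma adjusted p = 0.11). The ZT13 values depend on the scaling. With median-of-ratios factors *Rora* (-0.14, adjusted p = 0.018), *Rorb* (-0.19, adjusted p = 0.015) and *Tef* (-0.12, adjusted p = 0.015) were called lower after LPS at ZT13. That scaling moved the median of all genes by under 0.1, and changed the split of all calls at ZT13 from 3629 higher and 1772 lower to 2842 higher and 2831 lower.

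**Figure D4:**
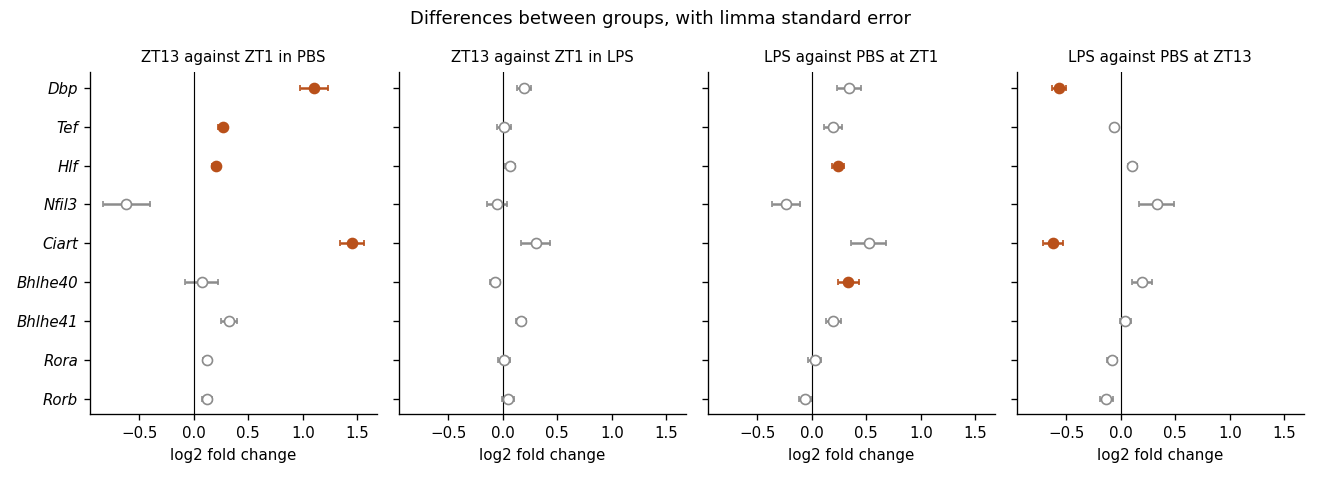
Log2 fold change of each gene (x axis) in the 4 pairwise comparisons, 1 panel each, with error bars of 1 limma standard error. Filled points passed an adjusted p under 0.05, 4 in the PBS time comparison, 0 in the LPS time comparison and 2 in each LPS against PBS comparison.

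The PBS and LPS time comparisons share no mice. The absolute log2 time difference was smaller after LPS than after PBS for all 9 genes, where this held for 12 of the 15 genes of the core clock loop and for 56.9% of all genes tested. For *Bhlhe40* the 2 values were nearly equal, 0.07 after PBS and -0.07 after LPS. Over the 9 genes the median absolute time difference was 0.26 after PBS and 0.07 after LPS, beside 0.08 and 0.07 over all genes tested. The difference between the 2 time effects passed as an interaction for *Dbp* and *Ciart* alone among the 9. The endothelial marker sum also differed between the PBS groups, at 130.1 to 134 CPM at ZT1 and 79.6 to 95.2 CPM at ZT13, with 3 of 5 markers called lower. In LPS samples it was 144 to 197 CPM at ZT1 and 195 to 224 CPM at ZT13, and 5 of 5 of its markers were called in the interaction. Its part in the time differences was not tested.

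**Figure D5:**
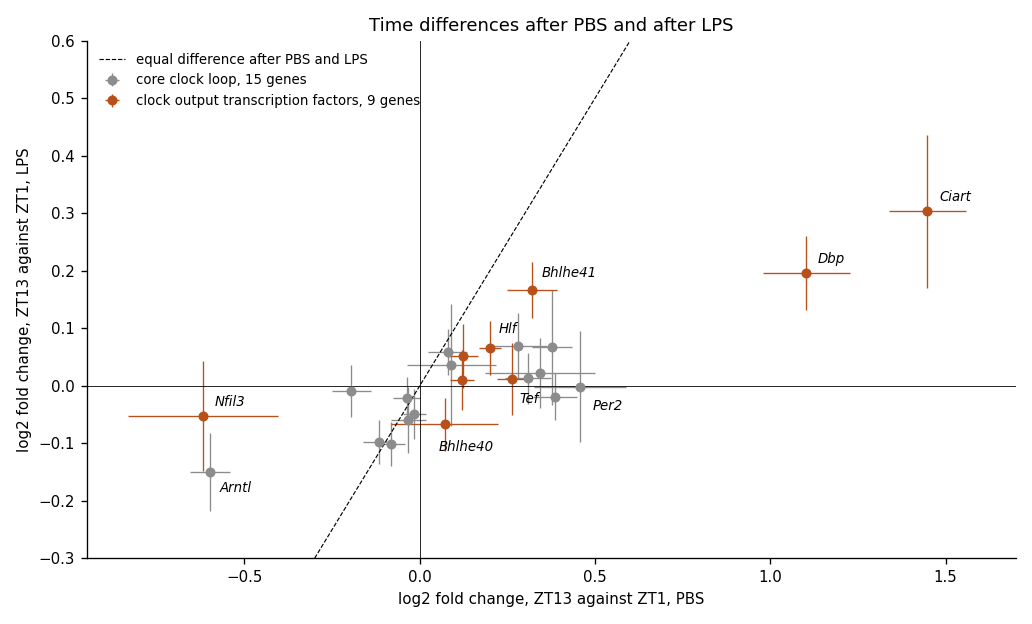
Log2 fold change of ZT13 against ZT1 after PBS (x axis) and after LPS (y axis, a finer scale) for the 9 genes and for 15 core clock genes, with error bars of 1 limma standard error. *Dbp* and *Ciart* lie far below the dashed line of equal differences, at 1.10 and 1.45 after PBS and 0.20 and 0.30 after LPS.

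The core clock loop that drives these genes was described by a list of 15 genes, all of them tested. After PBS, 2 were called higher at ZT13, *Per3* (0.38, SE 0.06, limma adjusted p = 0.031) and *Nr1d2* (0.39, SE 0.06, limma adjusted p = 0.041), and 1 lower, *Arntl* (-0.60, SE 0.06, limma adjusted p = 0.0034). *Arntl*, which encodes BMAL1, was at 38.6, 39.4 and 39.3 CPM in ZT1 PBS and at 23.95, 25.8 and 27.3 CPM in ZT13 PBS samples, so it moved opposite to *Dbp* and *Ciart*. After LPS, limma called 0 of the 15 between the times. Over all genes tested, 0.52% were called between the times after PBS and 0.0212% after LPS. LPS against PBS called 3 higher and 1 lower at ZT1 and 2 higher and 2 lower at ZT13. Of all genes tested, 16.2% and 28.6% were called in either direction, so both counts, 4 of 15 at each time, were near the background. The 2 higher at ZT13 were *Arntl* (0.23, SE 0.07, limma adjusted p = 0.021), opposite in direction to *Dbp* and *Ciart* there, and *Npas2*, a paralog of *Clock* (0.16, SE 0.04, limma adjusted p = 0.012). *Nr1d2*, the RORE repressor, was called in each direction, 0.21 (SE 0.06, limma adjusted p = 0.038) at ZT1 and -0.20 (SE 0.04, limma adjusted p = 0.0033) at ZT13, and its interaction of -0.40 (SE 0.07, limma adjusted p = 0.036) was the only one called among the 15. *Btrc*, a ubiquitin ligase component that acts on PER proteins, was called lower at both times, and *Nr1d1* and *Per3* higher at ZT1. The median log2 difference of the list was 0.08 at ZT1 and 0.01 at ZT13, beside 0.04 and 0.05 over all genes tested.

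A list of 10 known targets and partners of the 9 factors was also counted. After PBS, 1 of 10 was called between the times, *Usp2*, a clock-controlled deubiquitinase, which rose at ZT13 (0.57, SE 0.04, limma adjusted p = 8.3e-04). It was at 56.5, 61.9 and 59.7 CPM in ZT1 PBS and at 88.6, 88.2 and 87.2 CPM in ZT13 PBS samples. After LPS limma called 0 of 10 between the times. LPS-treated mice had higher levels of 5 of 10 at ZT1, *Alas1*, *Usp2*, *Nampt*, *Cdkn1a* and *Hdac3*, and 5 of 10 at ZT13, *Alas1*, *Por*, *Nampt*, *Cdkn1a* and *Id2*, where 16.2% and 28.6% of all genes tested were called in either direction. *Alas1* and *Por* encode enzymes of heme synthesis and of electron transfer to cytochromes P450, and their liver expression depends on PAR bZIP factors. With LPS at ZT13 they differed by 0.35 (SE 0.04, limma adjusted p = 3.3e-05) and 0.20 (SE 0.04, limma adjusted p = 0.0022). There *Dbp* was called lower, while *Tef* (-0.06) and *Hlf* (0.11) were not called. At ZT1 they differed by 0.26 (SE 0.05, limma adjusted p = 0.0057) and 0.20 (SE 0.07, limma adjusted p = 0.086). There *Hlf* was called higher, and *Dbp* and *Tef* were not called. *Cdkn1a*, a cell cycle inhibitor, had the largest fold change of the list at ZT13, 1.27 (SE 0.13, limma adjusted p = 4.6e-06). No gene of the list was called in the interaction.

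The genes whose levels followed each factor most closely were found by Pearson's r of log2(CPM + 0.5) over the 16 samples, which share libraries and group differences, and are given with no test. *Dbp* was followed most closely by *Nr1d2* (r = 0.899), *Epha8* (r = 0.851) and *Kcnip4* (r = 0.834). *Epha8* was also the closest to *Ciart* (r = 0.888), ahead of *Grb10* and *Plekhf1* (both r = 0.883). For *Tef* they were *Hrh3* (r = 0.928) and *Gm13375* (r = 0.919), and for *Hlf* they were *Camta1* (r = 0.915), *Cdh7* (r = 0.883) and *Acap2* (r = 0.882). *Nfil3* was nearest to *Acin1* (r = 0.859), *Midn* (r = 0.853) and *C130089K02Rik* (r = 0.845). *Bhlhe40* was nearest to *Mettl7a1* (r = 0.862), *Ankrd33b* (r = 0.842) and *Snap29* (r = 0.839), and *Bhlhe41* to *Tfip11* (r = 0.887), *Smim3* (r = 0.883) and *Prkab1* (r = 0.877). *Rora* was nearest to *Fam155a* (r = 0.878), *Nceh1* (r = 0.844) and *Arhgap20* (r = 0.834), and *Rorb* to *Dip2b* (r = 0.873), *Frzb* (r = 0.842) and *Slitrk3* (r = 0.836).

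Among the 9 genes themselves, the closest pair over the 16 samples was *Dbp* and *Ciart* (r = 0.893), and the most opposed was *Dbp* and *Nfil3* (r = -0.787). Part of this is the group difference. After each sample's group mean was removed, *Dbp* and *Bhlhe41* had r = 0.815, *Nfil3* and *Bhlhe40* r = 0.797, *Tef* and *Ciart* r = 0.765, *Dbp* and *Ciart* r = 0.310, and *Dbp* and *Nfil3* r = -0.626. These are descriptions over 16 samples whose values share scaling by library total.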

How the data were processed

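Cortex RNA of 16 mice was sequenced after ribosomal depletion. Per the labels' processing notes the submitters used bcl2fastq and DRAGEN 4.0.3-8 with GRCm38. The counting tool, annotation and strand setting are not given in the sources used here. The authors deposited CPM, which sum to 1000000 in each sample. Of 55774 lines, 287 repeat a gene with identical values and were removed. Low values gave the CPM of 1 read, but 80.7% to 82.8% per sample were whole multiples, so counts were not recovered and no count test was run. The median was 22459623 reads on genes per sample, and this precision covers counting error only.

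Groups came from sample titles, since the treatment field contradicts them in 12 of 16 samples. A gene was tested where its level reached 1 CPM in 3 or more samples, with limma 3.58.1 (R 4.3.3) on log2(CPM + 0.5) with an intensity trend, each pairwise comparison on its 2 groups and the interaction on 4 group means. Nothing in the labels says whether the mice of a group were housed or processed together. The p-values measure the spread between these samples, and a batch shared by a whole group cannot be told apart from the group difference. The description of ZT13 PBS replicate 1 ends in a different code from those of the other samples, and its meaning is not stated. Exact permutation tests used scipy 1.17.1. The fits were tested on simulated data. Gene positions and merged exon lengths are from GENCODE M21, promoters from RefSeq. Same-numbered samples were not treated as pairs (residual r -0.20 to 0.33, which cannot show whether mice were matched). The genes, lists, motifs and the rule of 3 most similar genes per member were chosen with earlier results of these data known. Genes named are the 9 factors, the called genes of the clock and target lists, and those 3. The target list as first written held 1 more gene, left out of its counts, and 1 gene most like *Tef* is likewise not reported here. Neuron, astrocyte, microglia, endothelial, oligodendrocyte, neutrophil, lymphocyte, erythrocyte, striatum, thalamus, hippocampus and choroid plexus markers were summed. Alternatives were 2 pseudocounts, 2 filters, median-of-ratios factors, no trend, quality weights, a replicate block, a single fit, each gene's own variance (an ordinary 2-way fit), removal of each mouse in turn, and treatment from the other field.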

Additional observations from a re-analysis of the deposited data

Results flagged for a closer look

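Between the times of day, the LPS response of *Dbp* differed by -0.91 on the log2 scale (limma adjusted p = 0.011), negative at ZT13 and positive at ZT1, where 4 of 5 LPS samples exceeded every PBS sample. That of *Ciart* differed by -1.14 (limma adjusted p = 0.030), with all 5 LPS samples below PBS at ZT13 and all 5 above PBS at ZT1. Both were tested as an interaction term.

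*Hlf* in ZT13 LPS replicate 5, at 248 CPM, lay far from the other 4 mice of its group by Dixon's ratio (0.747 of the group's range). Of the 18 groups of 5 mice tested, 1 was flagged, and chance flags about 1 in 20.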

How the results depend on the processing

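Of the 837 refits of single genes, 753 kept direction and call, 47 lost the call, 22 gained one and 15 changed sign, the last all in differences that had not passed. For LPS against PBS at ZT1, where 2 of 9 genes were called, 0 were called with all genes above 0 and with the treatment field, 1 with median-of-ratios factors and without the intensity trend, 4 with sample quality weights, 4 with a replicate block, 6 in a single fit of 16 samples, and 1 to 5 when a mouse was left out. At ZT13, where 2 were called, 5 were called with median-of-ratios factors, 0 with the treatment field, and 2 to 4 when a mouse was left out. For the PBS times, where 4 were called, 0 were called with all genes above 0 and without the trend, 2 in the single fit, and 1 to 3 when a mouse was left out. The calls over all genes moved too. For the PBS times they were 57 higher and 41 lower in the main fit, and 3 and 0 without the trend. They were 35 and 30 with all genes above 0, and 31 and 12 in the single fit. For LPS against PBS at ZT1, the single fit called 2709 genes higher and 1339 lower, from 2089 and 972. The interaction, with 2 called, had 0 without the trend, with each gene's own variance and no moderation and with the treatment field, 1 with all genes above 0, 1 with a replicate block, and 1 or 2 when a mouse was left out. Counts of the 9 genes for the LPS times stayed at 0. The calls over all genes there, 2 higher and 2 lower, moved to 203 and 22 with sample quality weights. They were 114 and 8 in the single fit, 317 and 28 without ZT1 LPS replicate 1, and 0 and 0 without the trend. With the treatment field, 0 of all 18859 genes tested were called in either LPS against PBS comparison or in the interaction. The replicate numbers were not treated as pairs in the main fits, and the block also took *Hlf* out of the PBS calls (adjusted p = 0.10).

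With median-of-ratios factors the sign changed for *Rora* (-0.019) and, at ZT13, *Bhlhe41* (-0.016) after LPS, and between the LPS times for *Tef* (-0.0018) and *Rora* (-0.0032). When a mouse was left out, *Rora* with LPS at ZT1 ran from -0.012 to 0.052 and *Bhlhe40* between the PBS times from -0.060 to 0.24. Between the LPS times, *Tef* ran from -0.037 to 0.070, *Nfil3* from -0.095 to 0.017 and *Rora* from -0.022 to 0.048. The cause of these changes was not tested. All genes above 0 means more genes tested. With median-of-ratios factors the calls of all genes at ZT1 split into 1656 higher and 1390 lower, from 2089 and 972.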
